A study of Rattus norvegicus with 10 samples.

Results

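Transcripts of glycolytic isoenzymes of sperm and soma were compared in adult rat testis. The members are 10 genes fixed by symbol, Gapdh, Gapdhs, Pgk1, Pgk2, Pgam1, Pgam2, Hk1, Hk2, Eno1 and Aldoa, and all 10 were found among the 16915 gene names of the deposited table. Where several loci carried a symbol, the locus with the highest mean over both groups was taken. The animals were Wistar rats at postnatal day 120 whose mothers had received tocopherol-stripped corn oil, called Vehicle, or the flame retardant congener BDE-47 in that oil. The dose was 0.2 mg/kg body weight per day by mouth from pregnancy day 8 to postpartum day 21, with 7 dams a group. The labels place 5 testis libraries in each group and give no litter. The deposited table has 1 value per group and locus, in FPKM, which counts fragments per kilobase of a transcript relative to all fragments sequenced. The variation from animal to animal is thus not known, no difference could be tested, and library depth is unknown. A direction rests on the column names Control and BDE-47, since nothing in the table ties a library to a column. In the sample titles the BDE-47 libraries carry a C code and the Vehicle libraries an X code. Should the columns hold the groups the other way round, every direction given here would be the opposite. Pairs of FPKM values below give the Vehicle group first and the BDE-47 group second.

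Glycolysis turns glucose into pyruvate in a fixed chain of enzymes, and at several steps mammals have more than one gene for the same reaction. In germ cells the X chromosome is silenced during meiosis, and Pgk2, an autosomal retrogene of the X-linked Pgk1, supplies phosphoglycerate kinase from meiosis onward. Gapdhs encodes the glyceraldehyde phosphate dehydrogenase of the sperm tail, which in mice is bound to the fibrous sheath and is needed for sperm motility. Gapdh, Pgk1 and Pgam1 are the forms used by most somatic cells.

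The sperm forms were lower and the somatic forms higher in the BDE-47 column at each of the 3 steps that have such a pair among the members. Gapdhs was at 1296 and 680 FPKM, while Gapdh was at 76.1 and 335 FPKM. The sperm form exceeded its somatic partner in both columns at all 3 steps. Differences are on the scale of log2(FPKM + 1), BDE-47 minus Vehicle, and a gene is called higher or lower once its difference reaches 2-fold, which is a rule of size and not a test. By that rule 3 members were higher (Gapdh, Pgk1 and Pgam1) and 2 were lower (Hk1 and Pgam2), and 5 lay within 2-fold. Among the 11567 names whose mean reached 1 FPKM, 30.1% were higher and 3.60% were lower by the same rule. The median difference was -0.15 over the 10 members and 0.45 over all compared genes. In whole testis RNA, fewer cells of a type and less RNA per cell cannot be told apart.

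**Figure D1:**
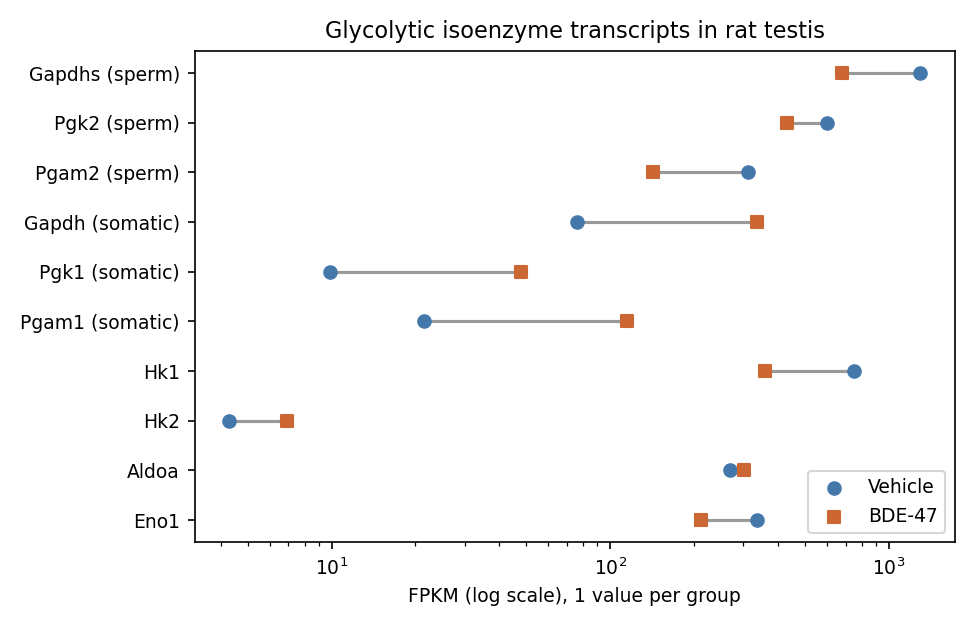
FPKM of the 10 isoenzyme genes in the Vehicle column (circles) and the BDE-47 column (squares), 1 value per group, on a log axis. The 3 sperm forms lie to the left in the BDE-47 column and the 3 somatic forms to the right, as with Gapdhs at 1296 and 680 FPKM and Gapdh at 76.1 and 335 FPKM.

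Of the sperm isoenzymes, Gapdhs had the highest level of all 10 members in both columns. It ranked as the 26th most abundant of the compared genes in the Vehicle group and the 89th in the BDE-47 group, with a difference of -0.93. Its value is that of a merged locus at chr1:90317628-90351911 of build rn5 that also names Tmem147, a membrane protein gene, and belongs to neither gene alone. Pgk2, on chr9:22859800-23125409, was at 600.5 and 431 FPKM, a difference of -0.48 and the smallest of the 3 sperm forms. In all, 29 loci share these bounds, 5 of them named, with Crisp1 as the other name, so the bounds are not those of Pgk2 alone. Pgam2, at chr14:86721031-86738925, encodes the muscle form of phosphoglycerate mutase, which sperm also use. It was at 313 and 142 FPKM, a difference of -1.13, and 1.51% of the compared genes had a lower one. Genes of skeletal muscle, the other tissue in which Pgam2 is abundant, were low in both columns. Of 8 such markers, 3 reached a mean of 1 FPKM, none by more than Mylpf (5.43 and 2.97 FPKM) and Acta1 (3.16 and 1.26 FPKM), and these 3 had a median difference of -0.70.

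The 3 somatic isoenzymes had similar differences, between 2.13 and 2.37. Gapdh, at chr4:224676330-224697452, had a difference of 2.13. Pgk1 was at 9.85 and 47.8 FPKM, a difference of 2.17. Pgam1, at chr1:268610732-268618363, was at 21.4 and 115 FPKM, a difference of 2.37 that was above those of 95.2% of the compared genes. On the scale of the FPKM values themselves these are ratios of 4.41 for Gapdh, 4.86 for Pgk1 and 5.35 for Pgam1. The Pgk1 locus has wide bounds, chrX:55629810-57548519, which 8 other loci of the table share. One of these also carries the name Pgk1 and was lower in the BDE-47 column, at 1.57 and 0.688 FPKM. Processed copies of Gapdh, Pgk1, Pgam1 and Aldoa are known in rodent genomes, and how reads with several matches were counted is not given in these sources, so the split between such copies and their parent genes is uncertain.

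The balance of the 2 forms within a step does not depend on a common scale factor between the columns. The ratio of Gapdhs to Gapdh was 17.0 in the Vehicle group and 2.03 in the BDE-47 group, a difference of -3.07 log2 units. For Pgk2 and Pgk1 the ratio was 61.0 and 9.00, a difference of -2.76 log2 units. For Pgam2 and Pgam1 it was 14.6 and 1.24, a difference of -3.56 log2 units and the largest of the 3. As a share of both forms, Gapdh held 5.55% in the Vehicle group and 33.0% in the BDE-47 group. The share of Pgk1 was 1.61% and 10.00%, and that of Pgam1 was 6.40% and 44.6%. In the BDE-47 column the mutase step was thus the nearest to an even balance, and the kinase step the furthest from it.

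**Figure D2:**
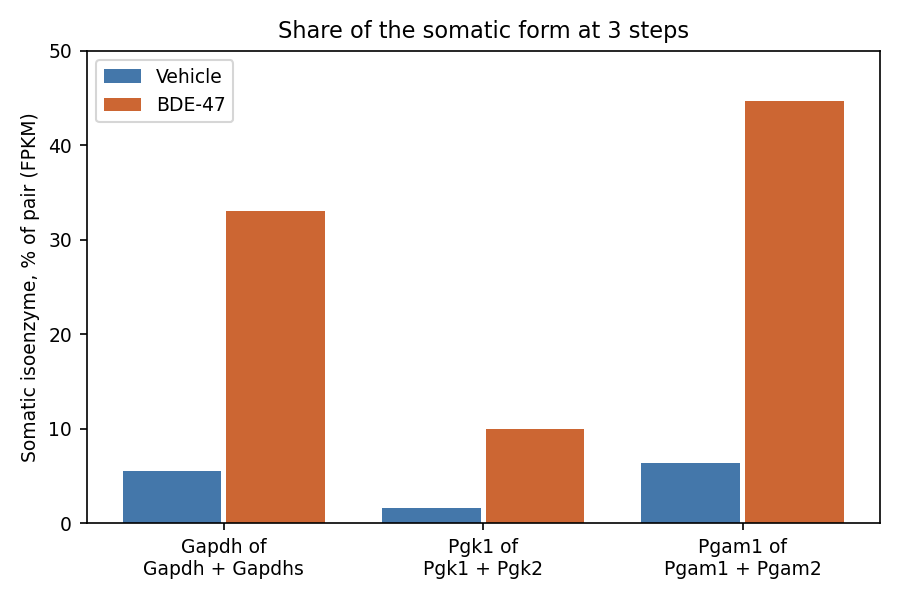
Somatic isoenzyme as a percentage of the summed FPKM of the somatic and the sperm form at 3 steps of glycolysis, with bars for the Vehicle and the BDE-47 column, 1 value per group and no error. The somatic share is larger in the BDE-47 column at each step, from 5.55% to 33.0% for Gapdh, 1.61% to 10.00% for Pgk1 and 6.40% to 44.6% for Pgam1.

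The sum of the 2 forms differed less between the columns than either form at each of the 3 steps. The glyceraldehyde phosphate dehydrogenase genes summed to 1372 and 1016 FPKM, a difference of -0.43. The phosphoglycerate kinase genes summed to 610 and 478 FPKM (difference -0.35) and the mutase genes to 334 and 257 FPKM (difference -0.38). All 10 members together held 0.488% of the summed FPKM of the Vehicle column and 0.329% of that of the BDE-47 column.

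The other 4 members do not form such pairs. Hk1 and Hk2 encode hexokinases, which start glycolysis by phosphorylating glucose. In mice, Hk1 also has germ cell transcripts whose product sits in the sperm tail. Hk1, at chr20:33703451-33770598, was at 750 and 360 FPKM, a difference of -1.06, and supplied 99.1% of the summed hexokinase FPKM in the Vehicle group and 97.6% in the BDE-47 group. Transcript forms of Hk1 are not separated in the table. Hk2, the insulin-responsive form of muscle and fat, at chr4:178237794-178307266, was the lowest member at 4.29 and 6.92 FPKM, a difference of 0.58. A further locus with the name Hk2 and the same bounds was at 0.620 and 1.75 FPKM. Those bounds are shared by 11 loci in all, and the bounds of Aldoa, given next, by 9. Aldoa, the widespread aldolase, at chr1:205207616-205228516, was at 269 and 302 FPKM, a difference of 0.17, and was the member with the smallest difference. Eno1, the widespread enolase, at chr5:170915862-170927269, was at 335 and 212 FPKM, a difference of -0.66. Hk1 and Eno1 thus lay on the side of the sperm forms, while the sign of Aldoa turned with the scaling of the columns, as given further on. Hk2 lay near the median of all compared genes, 0.45. Its difference was 0.098 with median-of-ratios scaling and 0.085 with quantile normalization.

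By level, the order in the Vehicle column was Gapdhs, Hk1, Pgk2, Eno1, Pgam2, Aldoa, Gapdh, Pgam1, Pgk1 and Hk2. In the BDE-47 column it was Gapdhs, Pgk2, Hk1, Gapdh, Aldoa, Eno1, Pgam2, Pgam1, Pgk1 and Hk2. Gapdh moved from place 7 to place 4 and Pgam2 from place 5 to place 7, while the first place and the last 3 were the same. With 1 value per group it cannot be said which neighbours in these orders differ beyond the spread between animals.

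The windows of 250 bases before the start sites of the members are shown because the sperm and the somatic forms of a step differ in them while their products catalyse the same reaction. The sequences are from RefSeq on build GRCr8, matched by symbol, for 9 of the 10 members, all but Pgk1, and 13 start sites. Capitals mark the TATA box, spelled TATAAA, the CCAAT box, the GC box, spelled GGGCGG, and the octamer TGACATCA, each searched on both strands. The octamer has 1 base changed from the cAMP response element TGACGTCA and was searched for after the windows had been read. Each line runs 5′ to 3′ and ends at the base before the start site.
Gapdhs, chr1:95121056-95121305, minus strand: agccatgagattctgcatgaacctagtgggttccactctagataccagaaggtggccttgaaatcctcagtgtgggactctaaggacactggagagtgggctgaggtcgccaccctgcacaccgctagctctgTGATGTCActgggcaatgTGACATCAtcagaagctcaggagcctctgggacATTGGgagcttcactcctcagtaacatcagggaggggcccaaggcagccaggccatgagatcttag
Pgk2, chr9:27976663-27976912, plus strand: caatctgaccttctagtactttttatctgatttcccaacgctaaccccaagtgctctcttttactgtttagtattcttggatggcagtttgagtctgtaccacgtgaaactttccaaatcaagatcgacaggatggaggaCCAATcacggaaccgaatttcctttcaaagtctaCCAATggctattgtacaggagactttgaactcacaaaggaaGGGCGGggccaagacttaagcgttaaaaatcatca
Pgam2, chr14:84897875-84898124, minus strand: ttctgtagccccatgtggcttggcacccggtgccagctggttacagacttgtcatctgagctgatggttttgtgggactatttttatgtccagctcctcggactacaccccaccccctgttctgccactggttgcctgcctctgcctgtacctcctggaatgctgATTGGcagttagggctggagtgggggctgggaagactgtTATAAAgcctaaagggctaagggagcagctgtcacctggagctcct
Hk1, chr20:30874815-30875064, minus strand: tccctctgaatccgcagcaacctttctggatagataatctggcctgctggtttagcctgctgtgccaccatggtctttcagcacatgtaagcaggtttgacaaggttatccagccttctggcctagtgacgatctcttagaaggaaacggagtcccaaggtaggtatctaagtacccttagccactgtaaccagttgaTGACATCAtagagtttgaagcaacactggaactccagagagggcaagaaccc
Hk1, chr20:30842073-30842322, minus strand: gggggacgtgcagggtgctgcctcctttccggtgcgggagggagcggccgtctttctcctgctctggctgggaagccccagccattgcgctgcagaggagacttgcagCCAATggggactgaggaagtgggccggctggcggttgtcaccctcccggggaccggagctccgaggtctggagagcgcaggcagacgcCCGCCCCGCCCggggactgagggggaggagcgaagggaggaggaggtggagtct
Gapdh, chr4:159652468-159652717, minus strand: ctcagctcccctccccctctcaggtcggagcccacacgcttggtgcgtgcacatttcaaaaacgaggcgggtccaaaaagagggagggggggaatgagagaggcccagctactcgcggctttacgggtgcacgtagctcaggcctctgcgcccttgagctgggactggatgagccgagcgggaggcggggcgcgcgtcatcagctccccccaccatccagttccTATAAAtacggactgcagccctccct
Pgam1, chr1:250672902-250673151, plus strand: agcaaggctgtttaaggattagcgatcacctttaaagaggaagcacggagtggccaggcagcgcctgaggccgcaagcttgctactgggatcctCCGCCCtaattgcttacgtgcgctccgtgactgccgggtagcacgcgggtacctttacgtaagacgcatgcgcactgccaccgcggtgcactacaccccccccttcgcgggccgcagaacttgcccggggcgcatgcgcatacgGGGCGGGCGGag

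CpG pairs were fewer before the sperm form than before the somatic form in the Gapdh and Pgam pairs, the ones with a window for each form. The Gapdhs window held 2 and the Gapdh window 17. The Pgam2 window held 2 and the Pgam1 window 25. The Pgk2 window held 7, and over 33469 windows of the same length the median was 5, with quartiles of 2 and 15. The Hk1 windows differed between its 2 start sites, with 3 CpG pairs at the outer site, the first one printed, and 17 at the inner one. These counts describe the reference sequence and say nothing of methylation in these testes.

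The octamer TGACATCA was found at 117 and 99 bases before the Gapdhs start and 52 bases before the outer Hk1 start, in no other of the 13 windows, and in 3.80% of all windows. The intact element TGACGTCA was in none of the 13 and in 1.59% of all windows. A TATA box lay 26 bases before the Gapdh start and 46 before the Pgam2 start, and 12.9% of all windows hold one. CCAAT was present before Gapdhs, Pgk2, Pgam2 and the inner Hk1 site among the windows printed, and in 34.0% of all windows. GC boxes were present before Pgk2, the inner Hk1 site and Pgam1 among the windows printed, with overlapping matches at the latter sites, and in 30.5% of all windows. Among the windows not printed, some of those of Aldoa and Eno1 also hold CCAAT and GC boxes. A match is a string of letters and does not show that a factor binds there.

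The remaining enzymes of the pathway mostly lay within 2-fold. Of 18 listed genes, 16 were in the table and 12 reached a mean of 1 FPKM. Among those 12, 2 were higher (Aldoc and Pfkl), none was lower and 10 lay within 2-fold, with a median difference of 0.083 that was negative under each of the 3 other scalings, -0.45 at the lowest. Of all compared genes, 30.1% were higher and 3.60% were lower by the same rule, with a median of 0.45. Aldoc, the brain-type aldolase, was at 4.03 and 29.0 FPKM (difference 2.58), and Pfkl, the liver-type phosphofructokinase, at 3.18 and 11.6 FPKM (difference 1.59). Each of these was a minor form of its step in both columns, with 6.83% of the aldolase sum and 11.9% of the phosphofructokinase sum in the BDE-47 column.

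Of the other glycolytic enzymes, the sperm genes Aldoart2 and Eno4 were below 0 in difference, although neither reached 2-fold. Both passed it with median-of-ratios scaling (-1.42 and -1.19), where 15.8% of all compared genes were lower. Pfkm (-1.39) and Tpi1 (-1.14), which are not sperm forms, passed it there too. Aldoart2, a retrogene of Aldoa that in mice is used by sperm, was at 169 and 93.1 FPKM (difference -0.85). Its share of the aldolase sum was 38.2% in the Vehicle group and 21.9% in the BDE-47 group, while that of Aldoa was 60.8% and 71.1%. Eno4, the enolase of the sperm tail in mice, was at 30.1 and 18.8 FPKM, a difference of -0.65 beside -0.66 for Eno1. The Eno4 share of the enolase sum was 8.15% and 7.99%, so the balance of these 2 enolases differed little between the columns, unlike that of the 3 pairs above.

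The other forms differed by less than 2-fold as reported. Pfkm, the muscle-type phosphofructokinase, was at 75.1 and 41.6 FPKM (difference -0.83), and Pfkp, the platelet type, at 58.9 and 44.0 FPKM (-0.41). Tpi1, the only gene of its step, was at 416 and 280 FPKM (-0.57). These 3 genes were lower in the BDE-47 column by less than 2-fold as reported, and Pfkm and Tpi1 passed it with median-of-ratios scaling. Gpi, which converts glucose 6-phosphate to fructose 6-phosphate, was at 47.8 and 64.0 FPKM (0.41). Pkm, the main pyruvate kinase gene, was at 81.6 and 94.4 FPKM (0.21). Bpgm, which makes bisphosphoglycerate, was at 40.8 and 41.1 FPKM (0.0098). Hk3 and Eno3 were at most 3.92 FPKM in either column, with differences of 0.20 and 0.16. Eno2, the neuronal enolase, was listed at 0 in both columns, which can be a failed estimate.

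Pklr, the pyruvate kinase gene of liver and red blood cells, was at a low value, 0.344 and 0.281 FPKM. Fbp1, the gluconeogenesis gene, was not low, at 155 and 75.1 FPKM. Pklr alone thus does not settle the labels, which name liver in the extraction step and testis as the tissue. The late spermatid marker Prm1 was at 43238 and 16271 FPKM.

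**Figure D3:**
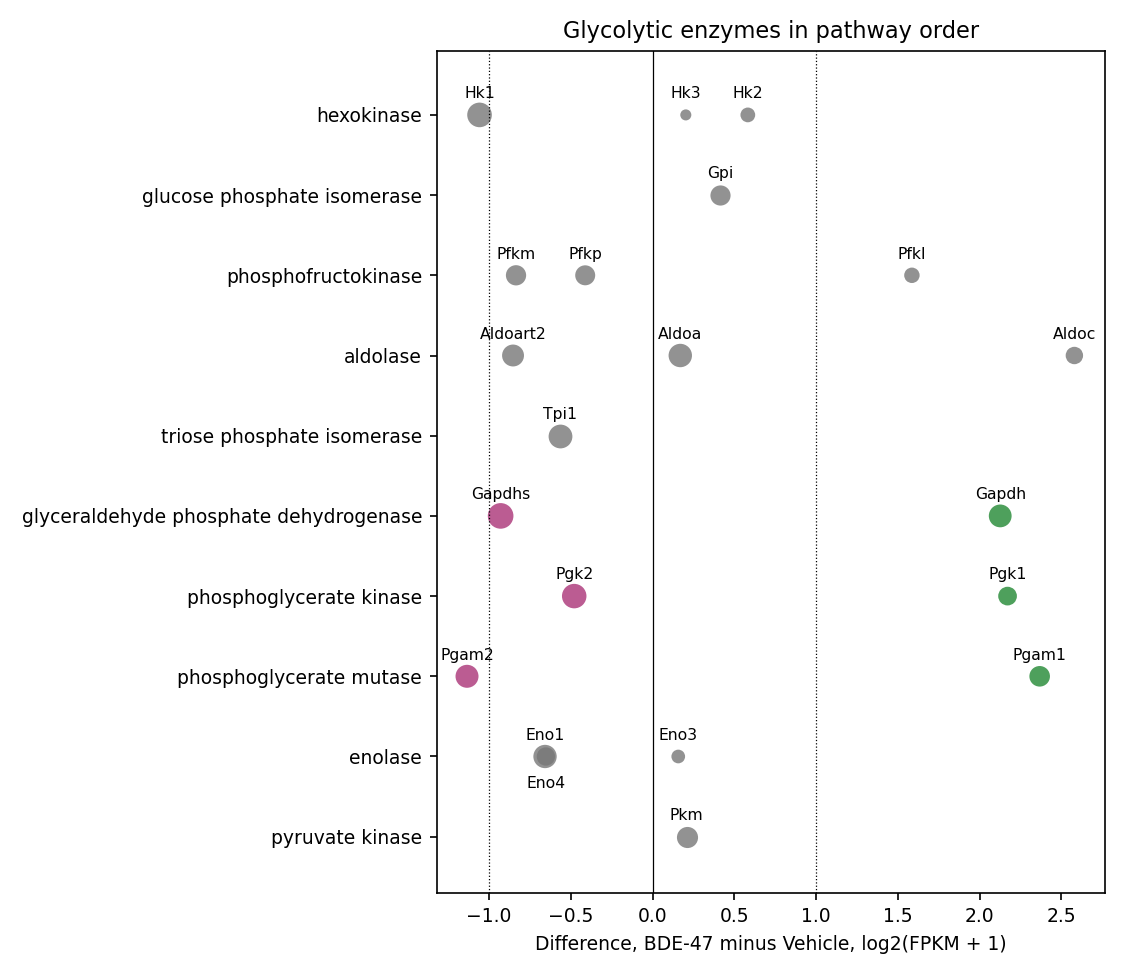
Difference between the columns, BDE-47 minus Vehicle on the log2(FPKM + 1) scale, for glycolytic genes that averaged at least 1 FPKM, by pathway step from hexokinase at the top to pyruvate kinase. Point area grows with the mean level, purple marks the 3 sperm forms and green the 3 somatic forms, and dotted lines mark 2-fold. The green points lie between 2.13 and 2.37, the purple ones between -1.13 and -0.48.

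Enzymes beside the main chain were called higher about as often as all compared genes, of which 30.1% were. Of 12 listed genes, 10 were compared, of which 3 were higher, 1 was lower and 6 lay within 2-fold, with a median of 0.27 (-0.27 with median-of-ratios scaling, -0.044 with quantile normalization, with 2 higher and 2 lower under each). Pfkfb3, which makes the phosphofructokinase activator fructose 2,6-bisphosphate, was at 1.93 and 9.13 FPKM (1.79). Minpp1, an inositol phosphate phosphatase that also acts on bisphosphoglycerate, was at 1.13 and 5.90 FPKM (1.69), and Pgm1, which links glycogen to glycolysis, at 3.29 and 9.06 FPKM (1.23). Fbp1, the fructose bisphosphatase of gluconeogenesis, was the lower one, at 155 and 75.1 FPKM (-1.04). Pfkfb4, the testis-type counterpart of Pfkfb3, was at 50.6 and 25.8 FPKM (-0.94), and was chosen for mention after its values were seen.

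Late spermatid markers were mostly lower, and round spermatid markers lay within 2-fold. Of the 3 sperm isoenzymes, Pgam2 was lower by at least 2-fold, while Gapdhs and Pgk2 lay within it. Of 12 late spermatid markers, 9 were lower by at least 2-fold and none was higher, with a median of -1.20, a range of -1.43 to -0.27 and summed levels of 90851 and 38424 FPKM. By the same rule 3.60% of all compared genes were lower and 30.1% were higher. Of 10 round spermatid markers none passed 2-fold in either direction, with a median of -0.025 and sums of 2720 and 2723 FPKM. The 2 most abundant of these were Spata6 (1418 and 1468 FPKM) and Tbpl1 (246 and 292 FPKM). The differences of Gapdhs (-0.93), Pgk2 (-0.48), Pgam2 (-1.13) and Hk1 (-1.06) lay within the range of the late spermatid markers. Those of Gapdhs and Pgk2 also lay within the range of the round spermatid markers, which ran from -0.96 to 0.45.

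Most markers of Sertoli cells, Leydig cells and macrophages were higher, as the somatic isoenzymes were, where 30.1% of all compared genes were. Of 12 Sertoli cell markers compared, 11 were higher and none lower by 2-fold, with a median of 1.57 and sums of 549 and 2624 FPKM. All 9 Leydig cell markers were higher, with a median of 2.51 and sums of 158 and 1766 FPKM. The largest single part of both sums was a locus that merges Insl3 with Jak3, at 71.0 and 904 FPKM. Of 10 macrophage markers 9 were higher, with a median of 3.21 and sums of 34.3 and 439 FPKM. Of 8 peritubular muscle markers 4 were higher (median 1.15, sums of 106 and 293 FPKM), and of 5 endothelium markers 2 were (median 0.97, sums of 91.3 and 146 FPKM, most of it from a locus that merges Tek with the acrosome gene Eqtn), so that the rest of these lists lay within 2-fold. All 3 blood loci were higher (median 1.51, sums of 41.6 and 132 FPKM). None of these markers was listed at 0 in both columns. The differences of Gapdh, Pgk1 and Pgam1, 2.13 to 2.37, lay between the medians of the Sertoli and the Leydig cell lists. The part of these cell types in the isoenzyme values was not tested.

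**Figure D4:**
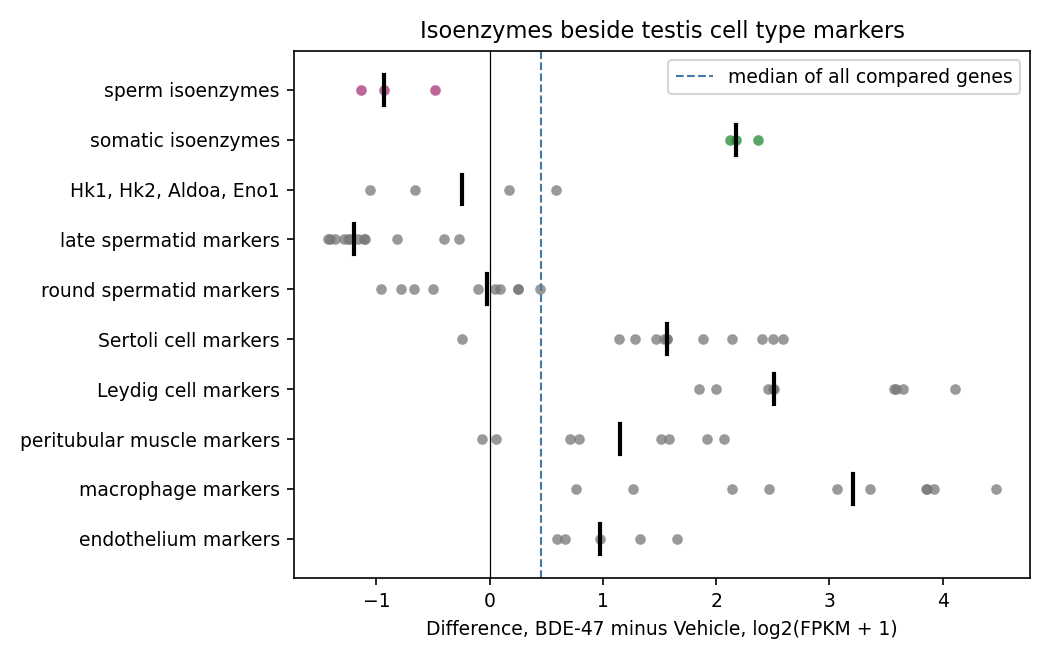
Difference between the columns, BDE-47 minus Vehicle on the log2(FPKM + 1) scale, for the isoenzymes and for markers of testis cell types; each point is a gene, black bars are medians and the dashed line is the median of all compared genes, 0.45. The sperm isoenzymes lie within the range of the late spermatid markers (median -1.20) and the somatic ones between the medians of the Sertoli (1.57) and Leydig cell lists (2.51). Gapdhs and Pgk2 also lie within the range of the round spermatid markers.

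The relative scaling of the columns bears on single genes, whereas a common scale factor cancels in the ratio of a pair. Median-of-ratios scaling removed a shift of 0.57 log2 units, after which 5 members were lower by at least 2-fold, Gapdhs at -1.50, Pgk2 at -1.05 and Eno1 at -1.22 beside Hk1 and Pgam2, and 15.8% of 11211 compared genes were. Aldoa was then at -0.40, and at -0.028 after rescaling without the most abundant loci, so its direction depends on the scaling. Gapdh, Pgk1 and Pgam1 were higher by at least 2-fold under each alternative run, with lowest values of 1.56, 1.61 and 1.80. After that scaling 4 of 10 round spermatid markers were lower by at least 2-fold (median -0.59), as were 10 of 12 late spermatid markers (median -1.76). Of the Sertoli cell markers 7 of 12 were then higher (median 1.01), and all 9 Leydig cell markers were (median 1.96). Of all compared genes 16.9% were higher with median-of-ratios scaling, and from 16.9% to 35.6% over the alternatives. With quantile normalization 5 of 12 late spermatid markers were lower by at least 2-fold (median -0.67), where 9.75% of all compared genes were. Of the round spermatid markers 1 of 10 was lower under quantile normalization (median -0.091). The sperm to somatic differences ranged from -3.13 to -3.07 log2 units for the Gapdhs pair, -2.76 to -2.48 for the Pgk2 pair and -3.56 to -3.40 for the Pgam2 pair. Of the 3 scalings only quantile normalization can move these values, and it gave -3.13, -2.48 and -3.40.

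**Figure D5:**
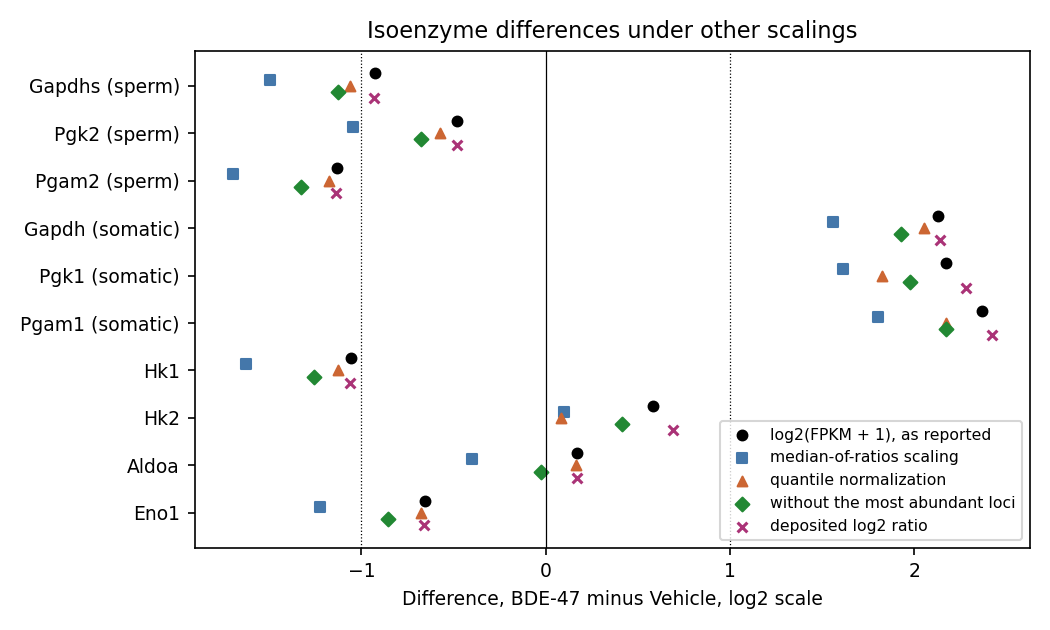
Difference of each member, BDE-47 minus Vehicle on a log2 scale, as reported and under 4 other treatments of the columns; dotted lines mark 2-fold. Gapdh, Pgk1 and Pgam1 lie beyond the upper line in each, Hk1 and Pgam2 beyond the lower line, and Aldoa changes sign, from 0.17 to -0.40 with median-of-ratios scaling.

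The named genes nearest to 4 of the members in the plane of both columns were taken as those of most similar pattern, over 2 group values only. For Gapdhs these were Lrrc46, Serpina1 and Ccdc179, with distances of 0.10 to 0.20 log2 units. For Pgk2 they were Tcp10b, Dynll1 and Ropn1, a sperm tail protein gene, at 0.10 to 0.16. For Gapdh they were the ribosomal protein gene Rpl6, Tsx and Gstm7 at 0.12 to 0.22, and for Pgk1 they were Nono, Tmed3 and Anxa11 at 0.018 to 0.079.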

How the data were processed

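Poly(A) RNA of 10 testis libraries, 5 per group, was sequenced from stranded libraries, per the labels' protocols. The tools were TopHat2 and Cuffdiff 2.1.1 with build rn5, per the submitters' processing notes. As to annotation, strand setting and the pooling of libraries within a group: not given in the sources used here. Per locus, the authors deposited log2 FPKM values, 1 per group, and their log2 ratio, for 94827 loci, of which 20638 carry a gene name. A log2 value of -10 is the lowest value and was taken as 0. The deposited ratio equals the difference of the columns within 0.01.

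FPKM were taken back from the log2 scale. For the background, 1 locus was kept per content of the name field, and 11567 names had a mean of at least 1 FPKM. Calls used a pseudocount of 1 and a difference of at least 2-fold. The calling step was tested on Vehicle values with known folds put in and no noise, which checks the arithmetic only. With 1 value per group no test was run. Sums over a step, its shares and the TGACATCA search were added after the values were seen. The members and lists were chosen with earlier results of these data known. Named are all members, the compared genes of the glycolytic list, up to 4 genes of each further list past 2-fold or otherwise its 2 most abundant, and the 3 nearest genes of 4 members. Of the cell type lists (late and round spermatid, Sertoli, Leydig, peritubular muscle, macrophage, endothelium, blood, skeletal muscle), mostly counts, medians and sums are given. Alternatives covered pseudocounts of 0.1 and 0.01, the deposited ratio, filters, 3 scalings and the choice of locus. Python 3.11.15 with pandas 2.3.3 was used.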

Additional observations from a re-analysis of the deposited data

How the results depend on the processing

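No paired analysis was possible because the table holds 1 value per group, and no replicate could be left out. The 3 higher isoenzymes were 3 under all 10 alternatives. The count of lower isoenzymes was 5 in place of 2 with median-of-ratios scaling, and 3 with quantile normalization and without the most abundant loci, where Gapdhs (-1.06 and -1.13) also passed 2-fold. The count of other glycolytic enzymes at least 2-fold lower was 4 with median-of-ratios scaling and 2 without the most abundant loci, in place of 0. The share of all compared genes that were lower also rose, from 3.60% as reported. It was 15.8% with median-of-ratios scaling, 9.75% with quantile normalization and 7.12% without the most abundant loci. The median over the members turned from -0.15 to 0.17 when only loci naming 1 symbol were used, because Gapdhs, found only in a merged locus, drops out; the ratio of Gapdhs to Gapdh has no value then. With median-of-ratios scaling the differences of Aldoa (-0.40), Hk3 (-0.10), Gpi (-0.15), Eno3 (-0.28), Pkm (-0.36) and Bpgm (-0.54) turned negative. So did Hk3 (-0.18), Eno3 (-0.30) and Bpgm (-0.22) with quantile normalization, and Aldoa (-0.028) and Bpgm (-0.18) without the most abundant loci. Median-of-ratios scaling centres the ratios by construction. Of 217 single gene values under alternatives, 195 kept direction and side of 2-fold, 11 passed 2-fold in the same direction and 11 turned. The filters and, for most genes, the choice of locus return the same value by construction, so the 195 do not measure robustness. All values that passed 2-fold or turned did so under the 3 scalings. Depth is unknown, so the precision of low values such as Hk2 and Pgk1 cannot be given.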

Other observations

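Genes of the hypoxia-inducible factor pathway, which raises many glycolytic enzymes when oxygen is low, were compared as a further list. Of 17 listed genes, 16 were in the table and 13 were compared. Of those, 6 were higher in the BDE-47 column by at least 2-fold, none was lower and 7 lay within 2-fold, with a median difference of 0.99 on the log2(FPKM + 1) scale beside 0.45 for all compared genes, of which 30.1% were higher. Bnip3, a mitochondrial protein gene, was at 5.86 and 32.2 FPKM in the Vehicle and BDE-47 columns. Vegfa, a growth factor of blood vessels, was at 1.52 and 9.32 FPKM, Adm, which encodes adrenomedullin, at 0.409 and 3.66 and Hif1a itself at 4.89 and 17.5. Egln2, a prolyl hydroxylase that marks the factor for breakdown, is named outside the rule as the gene of the list with the lowest difference and was at 91.8 and 53.4 FPKM. After median-of-ratios scaling 4 were higher and 1 was lower, with a median of 0.49, where 16.9% of all compared genes were higher. The list was not set against the isoenzymes by any test.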
